A study of Homo sapiens with 12 samples.

Results

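Chromatin regions of the human osteosarcoma line U2OS that were listed as open with a SOX2-FOXA2 CTD fusion protein, and in no other condition of the study, are described here. ATAC-seq, the assay used, lets the Tn5 transposase cut and tag accessible DNA, and places with many cuts are called as peaks. The 9 deposited peak lists were merged on chromosomes 1 to 22 and X wherever entries overlapped by at least 1 bp. A merged region belongs to the set, called fusion-only, if the fusion list had an entry in it and none of the other 8 lists did. Of 399183 merged regions, 37561 were fusion-only (9.41%), which is 21.6% of the 173896 regions with a fusion entry. The count was 15977 with the same number of entries from each list of the SOX2 set, 14397 with those lists held to a global IDR (irreproducible discovery rate) of at most 0.05, and 3936 with the fusion list alone held to it. Each of them held exactly 1 of the 177650 fusion entries. These regions were chosen by presence or absence of entries in the lists, so their number, strength and reproducibility are given as descriptions without a test.

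The 12 samples fall into 6 groups of 2. All come from U2OS cells, and the constructs were expressed from Tet-on transgenes, which doxycycline switches on. The first set, the FOXA2 set, holds wild-type cells (WT), cells with Tet-on FOXA2 in full length (FOXA2FL) and cells with Tet-on FOXA2dCTD, in which the CTD, the C-terminal domain, is deleted. The second, the SOX2 set, holds Tet-on SOX2 in full length (SOX2FL), Tet-on SOX2FOXA2CTD (SOX2FLFOXA2CTD, the fusion of full-length SOX2 with the FOXA2 CTD) and a wild type of its own (WT_SOX2). Construct cells had received doxycycline at 500 ng/ml for 4 days. The treatment and genotype fields of both wild types are empty, their protocol text nevertheless names doxycycline, and the title of the WT_SOX2 samples also names the SOX2 cell line. Whether those cells are parental U2OS or the uninduced line, and whether any line is a single clone, is not given in the sources used here.

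FOXA2 is a forkhead factor of endoderm and liver, and SOX2 is an HMG-box factor of pluripotent and neural progenitor cells. Both are pioneer factors, able to bind their sites in closed chromatin. Forkhead domains recognise words such as TGTTTAC, and SOX proteins words such as CATTGT. The C-terminal part of FOXA proteins has been linked to histone contact and to the opening of compacted chromatin, which is the background to attaching it to another pioneer factor. In U2OS, a mesenchymal bone tumour line, liver and neural programmes are not normally active.

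The lists differed in kind. Each FOXA2-set sample had its own peak list, whereas SOX2-set groups came with 1 list each, in the form in which IDR compares a pair of inputs, taken here to be the samples of that group. Over chromosomes 1 to 22 and X the lists held from 19862 (WT replicate 1) to 177650 entries (fusion), so the fusion list was the longest. SOX2FL had 147763 entries and WT_SOX2 had 110813. Read depth is not known, and no spread between replicates can be given for a group with 1 list. Intervals are Wilson 95% intervals and cover counting error only, since neighbouring regions of 1 list are not replicate cultures. As a check of the labels, the fusion list had an entry in the FOXA2 gene at chr20:22581797-22582528 (−log10 p 6.58, global IDR 0.0241) that the SOX2FL and WT_SOX2 lists lacked. All 6 lists of the FOXA2 set, both WT lists included, overlapped it, so it is not fusion-only. All 3 lists of the SOX2 set, WT_SOX2 included, had entries in the SOX2 gene. Entries in these genes therefore do not separate construct labels from wild-type labels.

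Sequence could be read where a fusion-only entry overlapped a listed promoter window, the 250 bases before and 50 bases after an annotated start in RefSeq (GRCh38.p14). There were 201 such windows, of 194 genes. To show the kind of sequence involved, the 250 upstream bases are printed, 5′ to 3′ on the strand of the gene, for the 6 strongest entries with a SOX or FOXA word inside both the entry and those bases. Capitals mark the SOX word CATTGT, which reads ACAATG where it lies on the opposite strand. They also mark the FOXA word TGTTTAC, which in that case reads GTAAACA. The words can overlap one another in the letters TGT. IGF1 encodes insulin-like growth factor 1 (chr12:102481748-102481997, minus strand). MYLK encodes myosin light chain kinase (chr3:123620549-123620798, minus strand), and MYOCD-AS1 is a lncRNA antisense to the gene of the smooth muscle coactivator myocardin (chr17:12706136-12706385, minus strand). LOC124901449 (chr6:159114854-159115103, plus strand) is annotated as protein-coding and LOC124901748 (chr7:133484302-133484551, minus strand) as a lncRNA. CLDN22 encodes a tight-junction claudin (chr4:183320277-183320526, minus strand).
IGF1: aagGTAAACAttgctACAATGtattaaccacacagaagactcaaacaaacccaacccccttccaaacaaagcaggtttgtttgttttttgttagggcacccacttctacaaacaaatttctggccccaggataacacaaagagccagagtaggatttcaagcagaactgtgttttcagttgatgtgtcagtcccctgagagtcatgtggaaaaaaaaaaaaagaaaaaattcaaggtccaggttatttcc
MYLK: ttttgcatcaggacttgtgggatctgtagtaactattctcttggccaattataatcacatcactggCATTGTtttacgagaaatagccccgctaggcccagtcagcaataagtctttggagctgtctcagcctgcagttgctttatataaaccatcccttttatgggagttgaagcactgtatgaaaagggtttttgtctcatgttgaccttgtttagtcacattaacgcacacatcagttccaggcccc
MYOCD-AS1: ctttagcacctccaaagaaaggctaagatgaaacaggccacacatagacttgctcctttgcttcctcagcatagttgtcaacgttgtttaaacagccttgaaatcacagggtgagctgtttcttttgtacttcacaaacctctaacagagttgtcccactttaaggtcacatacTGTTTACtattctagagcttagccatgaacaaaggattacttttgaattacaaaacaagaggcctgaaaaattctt
LOC124901449: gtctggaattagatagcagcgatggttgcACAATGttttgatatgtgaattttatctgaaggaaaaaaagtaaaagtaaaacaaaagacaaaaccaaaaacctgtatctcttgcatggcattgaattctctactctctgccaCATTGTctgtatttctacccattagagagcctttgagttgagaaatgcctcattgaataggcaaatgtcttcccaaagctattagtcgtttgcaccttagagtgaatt
LOC124901748: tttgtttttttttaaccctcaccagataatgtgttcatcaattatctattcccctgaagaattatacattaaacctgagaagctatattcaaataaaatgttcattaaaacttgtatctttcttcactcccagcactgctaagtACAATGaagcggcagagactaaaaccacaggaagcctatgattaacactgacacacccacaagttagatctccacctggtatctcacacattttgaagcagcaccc
CLDN22: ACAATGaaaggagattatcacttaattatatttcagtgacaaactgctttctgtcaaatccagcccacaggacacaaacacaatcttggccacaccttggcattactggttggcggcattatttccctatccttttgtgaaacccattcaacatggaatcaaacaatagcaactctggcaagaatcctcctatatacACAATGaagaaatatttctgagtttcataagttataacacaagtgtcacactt

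The IGF1 window held both words, a FOXA word and a SOX word a few bases apart near its far end. The −log10 p of its entry was 9.27 in input 1 and 12.3 in input 2 of the fusion list, at a global IDR of 0.00452. The MYLK window held 1 SOX word, and its entry had 8.27 and 8.56 (IDR 0.00943). In MYOCD-AS1 the marked word was a FOXA word, with 8.10 and 11.1 (IDR 0.00809). Those 3 entries and the one at LOC124901449, with 2 SOX words and inputs of 6.97 and 6.37 (IDR 0.0313), passed a global IDR of 0.05. The entries at LOC124901748 (5.89 and 5.53, IDR 0.0529) and CLDN22 (4.86 and 8.77, IDR 0.141) did not. All 6 windows were poor in G and C, with a GC share between 38.7% (MYOCD-AS1) and 43.7% (MYLK).

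Across the 201 windows, the SOX word was present in 49, or 24.4% (95% interval 18.96 to 30.8%), against 10.7% of all 34961 listed windows. The FOXA word was present in 20, or 9.95% (6.53 to 14.9%), against 3.42% of all windows. The AP-1 word TGANTCA, bound by FOS and JUN dimers, was found in 18.4% (13.7 to 24.3%) against 7.68%, and the TCF-like SOX word CTTTGT in 30.8% (24.9 to 37.5%) against 16.1%. In the other direction, the CTCF core word AGGGGGC was found in 4.98% (2.72 to 8.91%) against 14.4%, and the ETS word CCGGAAG in 1.49% (0.509 to 4.30%) against 10.3%. The word of GATA factors, spelled AGATAAG, was found in 5.97% (3.45 to 10.1%) against 2.67%. For the other words the interval included the background. The word CATTCC of TEAD factors was at 17.9% against 14.0% over all windows. That of RUNX factors, which reads TGTGGTT, was at 6.97% against 4.28%. The octamer-like word ATGCAAA was at 5.47% against 4.45%, and the forkhead variant spelled TGTTTGC at 3.98% against 3.88%. In the 15176 windows with no entry in any list, the SOX word was at 14.9% and the FOXA word at 4.38%. The AP-1 word was at 7.86% and the TCF-like SOX word at 20.9% there, all below the fusion-only intervals. The GATA word, at 4.20%, and the ETS word, at 3.04%, were inside those intervals. The CTCF core word, at 8.94%, was just above its interval. Both strands were searched over the whole 300 bases, so a counted word need not lie inside the entry, and a match is a description and not a bound site.

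Base composition moved with these shares. The median GC share was 45.3% in fusion-only windows and 58.7% in all windows. Among windows of GC under 50%, a choice made after seeing the data, the SOX word was present in 28.2% (21.2 to 36.5%) of 131 fusion-only windows against 20.1% of 10676, and the FOXA word in 12.2% (7.66 to 18.9%) against 6.25%. Their intervals still lay above those backgrounds, by less than without the split. So did those of the AP-1 word, at 22.9% (16.5 to 30.8%) against 13.5%, and of the TCF-like SOX word, at 38.2% (30.3 to 46.7%) against 25.7%. For the GATA word, at 6.87% (3.66 to 12.5%) against 5.53%, the interval now included the background. The same held for the CTCF core word, at 1.53% (0.420 to 5.40%) against 2.69%, and the ETS word, found in 0 of 131 windows (0 to 2.85%) against 1.69%. Regions with entries in SOX2FL and the fusion and no other list, called SOX2-and-fusion regions, overlapped 318 windows. There the SOX word was at 30.5% (25.7 to 35.8%) and the FOXA word at 5.35% (3.36 to 8.39%). SOX2-only regions, the mirror case with an entry in SOX2FL alone, overlapped 211 windows, with the SOX word at 13.3% (9.34 to 18.5%) and the FOXA word at 2.84% (1.31 to 6.06%). The FOXA word interval of the fusion-only windows overlapped that of the SOX2-and-fusion windows and did not overlap that of the SOX2-only windows. Among windows of GC under 50% the FOXA word was at 6.84% (4.25 to 10.8%) and 5.88% (2.31 to 14.2%) in these 2 classes. Both intervals overlapped that of the fusion-only windows. At that GC the AP-1 word was at 20.1% and 17.6% in the same classes, and the TCF-like SOX word at 38.5% and 35.3%. Windows with a fusion entry that is not fusion-only had these words at 25.4% and 26.4%. The last interval (24.4 to 28.5%) lay below that of the fusion-only windows, and the others overlapped their fusion-only counterparts. At that GC the AP-1 and TCF-like intervals thus overlapped between fusion-only, SOX2-and-fusion and SOX2-only windows, which does not show equal shares. Over all windows the SOX word interval of the fusion-only windows lay above that of the SOX2-only windows. Among windows of GC under 50% the SOX word was at 34.6% (28.8 to 40.9%) in SOX2-and-fusion windows. In SOX2-only windows it was at 20.6% (12.7 to 31.6%), and each interval overlapped that of the fusion-only windows.

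**Figure D1:**
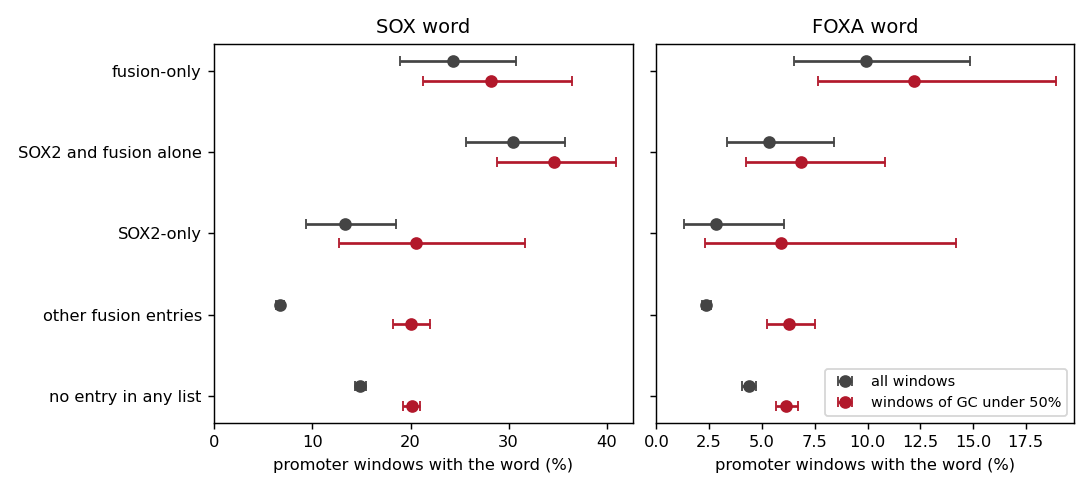
Share of promoter windows (%) that hold the SOX word (left) or the FOXA word (right), by the class of entry that overlaps the window, with Wilson 95% intervals; grey points are all windows and red points windows of GC under 50%. "Other fusion entries" are windows with a fusion entry that is not fusion-only. The fusion-only windows had the highest share of the FOXA word (9.95%), while the SOX word was more frequent in SOX2-and-fusion windows (30.5%) than in fusion-only windows (24.4%), with overlapping intervals.

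Most fusion-only entries were weak. The strength of an entry is the −log10 p of its weaker input, as deposited, and its median was 3.27 over fusion-only entries against 5.89 over the other 140089 fusion entries. The quartiles of the fusion-only values were 2.76 and 4.31, and the highest was 22.8. Entry lengths had a median of 384 bp, against 614 bp for the other entries. Many entries shared the same value: the 5 commonest strengths held 16549 entries, or 44.1%. The 2 inputs ranked the fusion-only entries less alike than they ranked the others. The Spearman correlation across entries was 0.414 against 0.734, over a narrower range of strengths. SOX2-only entries, from the SOX2FL list, had a median strength of 3.47 and a median length of 332.5 bp. Their Spearman correlation was 0.296, and 2.91% of them had a global IDR of at most 0.05. Weak and short entries were thus not particular to the fusion list.

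A global IDR of at most 0.05 was reached by 3936 fusion-only entries, 10.5% (10.2 to 10.8%), against 42.5% of all fusion entries and 52.5% of SOX2-and-fusion entries. Among the fusion-only regions found with the same number of entries from each SOX2-set list it was 40.6% (6491 of 15977). That setting kept only the strongest 110813 entries of each list, which drops weak fusion entries. The 42.5% refers to the full fusion list and is no matched comparator for it. The highest IDR that occurs, 0.511, was held by 20628 fusion-only entries (54.9%), against 25.3% of all fusion entries and 15.3% of SOX2-and-fusion entries. Strength and IDR also bear on whether an entry has a partner in another list, so these shares are linked to the way the set was chosen. At −log10 p of at least 10 in both inputs stood 331 fusion-only entries, 0.881% of the set against 19.8% of all fusion entries.

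**Figure D2:**
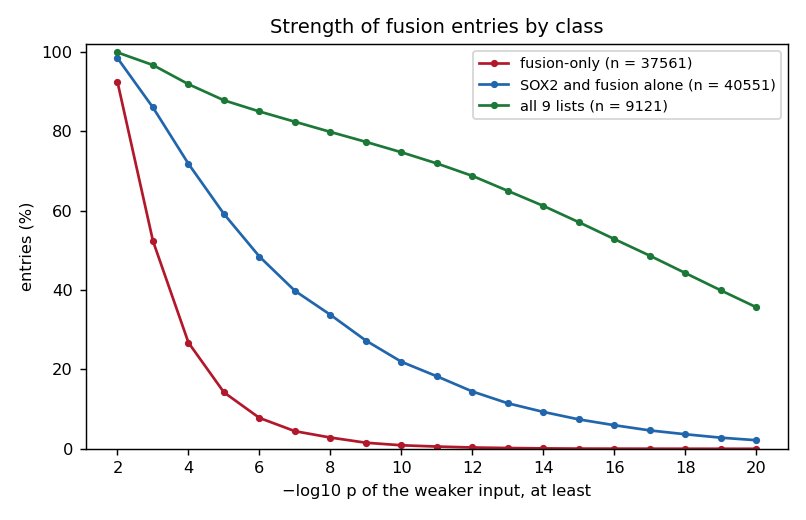
Share of entries of the fusion list (%) whose weaker input reached the −log10 p on the x axis, for fusion-only entries, SOX2-and-fusion entries and entries with a partner in all 9 lists. At 10 the shares are 0.881%, 21.9% and 74.7%.

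When all fusion entries were divided into 5 strength classes of about equal size, from weakest to strongest, the share that was fusion-only was 45.3%, 31.1%, 19.2%, 7.50% and 0.977%. The strongest class thus held 347 fusion-only entries among 35529. At the edge of the rule, 685 fusion-only entries lay within 50 bp of a merged region with an entry of another list. A further 629 fusion entries were kept out by an overlap of at most 50 bp with 1 other list. Both groups had a median strength of 2.97 and a median length of 325 bp. In each group few entries had an IDR of at most 0.05, 5.69% inside the rule and 6.36% outside it.

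The nearest merged region with an entry of another list lay at a median distance of 2472 bp. Of the fusion-only entries, 25.6% had such a region within 1 kb, whose edge can be that of another fusion entry. For the SOX2FL list the median gap was 6857 bp and for WT_SOX2 it was 10425 bp. The long FOXA2FL replicate 1 list had a median gap of 5757 bp, and the short WT lists had gaps of 63659 bp and 63702 bp. From a fusion-only entry to the next fusion-only entry the median was 24160 bp, and 25.5% had another within 10 kb. Between all fusion entries, which are more numerous, the median was 5982 bp and 71.7% had another within 10 kb.

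The fusion entries that just failed the rule, by having an entry in a single other list, numbered 49727. SOX2FL was that list for 40551 of them (81.5%) and WT_SOX2 for 5067 (10.2%), while the 6 lists of the FOXA2 set supplied the rest, from 4 (WT replicate 1) to 1687 (FOXA2FL replicate 1). Without regard to the FOXA2 set, 44119 merged regions had a fusion entry and none in SOX2FL or WT_SOX2, so the 37561 fusion-only regions are most of these. The other 6558 had an entry in the FOXA2 set. With FOXA2FL and without FOXA2dCTD or WT there were 1954 of them, with FOXA2dCTD and without FOXA2FL or WT there were 2467, and with both constructs and without WT there were 1688. FOXA2FL and FOXA2dCTD lists differ in length, so these counts give no direction for the CTD.

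The 10 strongest fusion-only regions reached −log10 p values between 16.8 and 28.6 in the fusion inputs, with global IDRs from 3.53e-05 to 0.000348. First was a 958 bp region in CEP128, a centriolar protein gene (chr14:80882278-80883235), with 28.6 and 22.8 in inputs 1 and 2. The nearest SOX2FL entry was 9009 bp away, and the nearest of all lists a FOXA2FL replicate 1 peak at 3719 bp. Second was a region in ZFPM2, which encodes a cofactor of GATA factors (chr8:105431986-105432709), with 19.1 and 23.8. It differed from the first in having entries of 6 lists close by, at gaps of 1593 to 1904 bp in the FOXA2 constructs, SOX2FL and the fusion itself. A region in DGKB, a diacylglycerol kinase gene (chr7:14478662-14479479), had 18.9 and 19.7, and one in C9, the gene of complement component 9 made by liver (chr5:39307761-39308316), had 18.9 and 19.01. The C9 region lay 24074 bp from the nearest SOX2FL entry and 1329 bp from a FOXA2dCTD replicate 2 peak.

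A pair of the others belonged to the surroundings of LINGO2, a neuronal membrane protein gene on chromosome 9. One lay inside it (chr9:28935938-28936663) with 16.8 and 17.1. Another lay 698575 bp outside (chr9:29911963-29912704) with 18.2 and 18.1, and it had a FOXA2dCTD replicate 2 peak 504 bp away. The region in FNDC3A (chr13:49140669-49141513) had 21.6 and 17.3. The other 3 also lay outside protein-coding genes. The first of them was 267216 bp from ACO1, which encodes an iron-responsive aconitase (chr9:32117160-32117972, 19.9 and 17.9). Next came one 145502 bp from ZBTB20, a zinc-finger repressor gene (chr3:115292455-115293170, 17.4 and 17.1), and one 19194 bp from RIPK2, a kinase of innate immune signalling, inside the lncRNA gene PARAIL (chr8:89738102-89739104, 17.0 and 16.8). The ranking used the weaker input, so that both inputs are high here by choice.

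**Figure D3:**
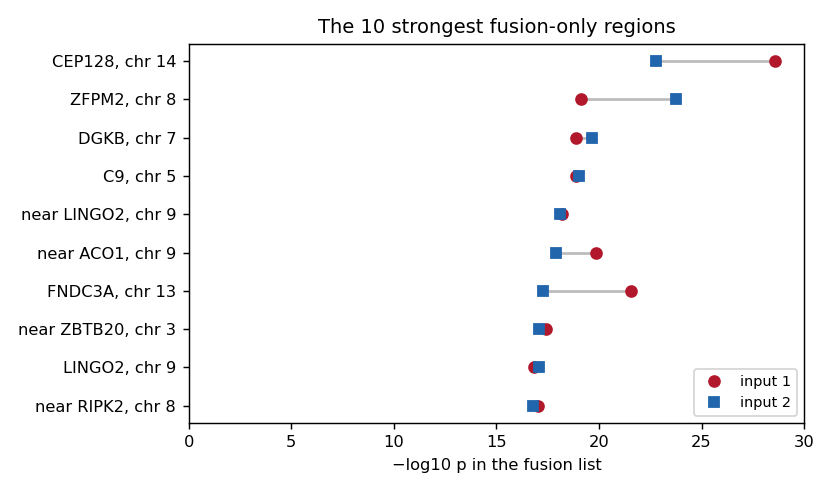
−log10 p in input 1 (circles) and input 2 (squares) of the fusion list for the 10 strongest fusion-only regions, named by the protein-coding gene that contains the summit or, with "near", the closest one. The CEP128 region is highest in input 1 (28.6), and in each region both inputs are at 16.8 or more.

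Few fusion-only regions were promoters. Of 35451 fusion-only summits on chromosomes with listed starts, 279 lay within 1 kb of a protein-coding start, 0.787% (0.700 to 0.884%), against 7.00% of all fusion entries and 8.67% of the other fusion entries. The SOX2-and-fusion entries were about as rarely there, at 0.553% (0.484 to 0.633%), and the SOX2-only entries at 1.36% (1.18 to 1.57%). Of entries with a partner in all 9 lists, 47.4% (46.4 to 48.5%) were within 1 kb. The rule leaves out regions with an entry in another list, wild types included, so the low share is linked to how the set was chosen. By strength class, from weakest to strongest, it was 0.897%, 0.996%, 0.433%, 0.201% and 0.612%. The other fusion entries had 4.21%, 5.64%, 5.25%, 6.35% and 18.3%, and the SOX2-and-fusion entries among them 0.807%, 0.675%, 0.488%, 0.480% and 0.467%. The strongest class rests on 2 fusion-only entries of 327. The median distance to a listed start was 103420 bp, against 71296 bp for the other fusion entries.

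Position inside or outside genes differed less. Summits fell inside protein-coding spans in 42.6% (42.1 to 43.1%) of fusion-only entries, against 42.0% of all fusion entries. More than 100 kb from any such span were 29.9% (29.5 to 30.4%) against 25.8%, and more than 500 kb 9.64% (9.35 to 9.95%) against 8.36%. SOX2-and-fusion entries were above the fusion-only entries in both shares, at 32.3% (31.9 to 32.8%) and 11.2% (10.9 to 11.5%). SOX2-only entries were farther out, 34.0% (33.3 to 34.8%) beyond 100 kb and 16.1% (15.5 to 16.7%) beyond 500 kb.

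**Figure D4:**
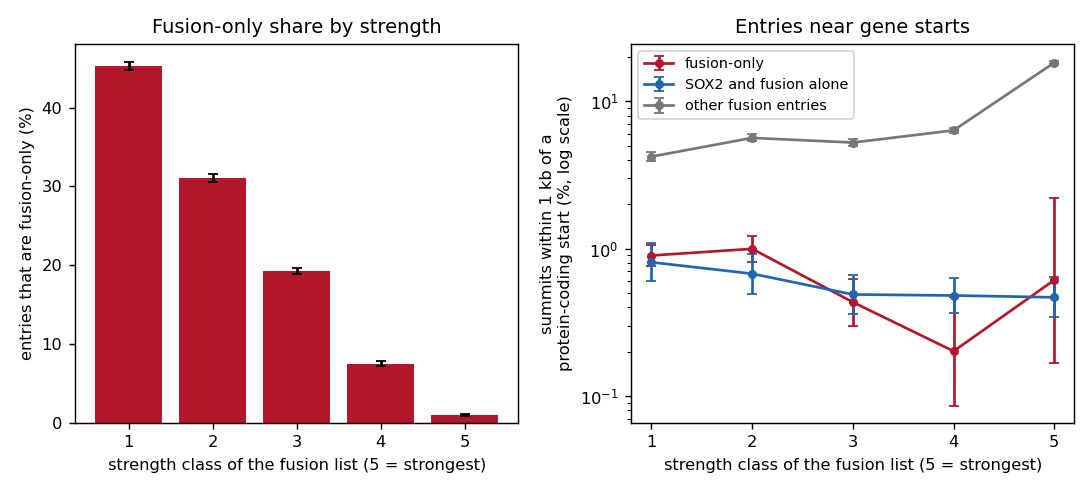
Left, share of fusion entries (%) that are fusion-only in each strength class; right, share of summits (%, log axis) within 1 kb of a listed protein-coding start for fusion-only, SOX2-and-fusion and all other fusion entries (the last include SOX2-and-fusion entries). Bars and points carry Wilson 95% intervals. The fusion-only share falls from 45.3% to 0.977%. In each class the fusion-only entries lie near starts less often than all other fusion entries, with intervals that overlap those of SOX2-and-fusion entries.

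Chromosomes differed in the share of their fusion entries that was fusion-only. It was highest on X, at 28.9% (27.7 to 30.1%), on 13, at 28.0% (26.6 to 29.5%), and on 4, at 24.9% (24.1 to 25.7%). Lowest were 19, at 10.9% (9.91 to 12.04%), 17, at 15.3% (14.3 to 16.3%), and 22, at 15.7% (14.4 to 17.2%). Neighbours within each of these groups had overlapping intervals, except that 4 lay below 13 and X, and 19 below 17 and 22. Among entries with an IDR of at most 0.05 the share was 8.17% on X, 7.72% on 4, 7.19% on 13 and 1.29% on 19. Across the 23 chromosomes the share followed the density of protein-coding genes inversely (Spearman −0.75), as a description over chromosomes of the same libraries. The rule leaves out entries shared with other lists, and those lay within 1 kb of a start more often (8.67% against 0.787%). How far the choice of the set bears on this relation was not tested. For SOX2-only entries the relation to gene density was not computed. Their share of SOX2FL entries was 9.11% on X, 8.94% on 13 and 10.99% on 19. Across chromosomes that share had a Spearman correlation of −0.443 with the fusion-only share. Fusion entries themselves were sparse on X and 13, at 33.5 and 33.4 per Mb, against 56.2 per Mb on 19. Fusion-only regions stood at 9.66 per Mb on X and 9.37 on 13, against 14.72 on 4 and 6.14 on 19. The high shares on X and 13 thus do not mean that fusion-only regions were dense there. The part of copy number was not tested.

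**Figure D5:**
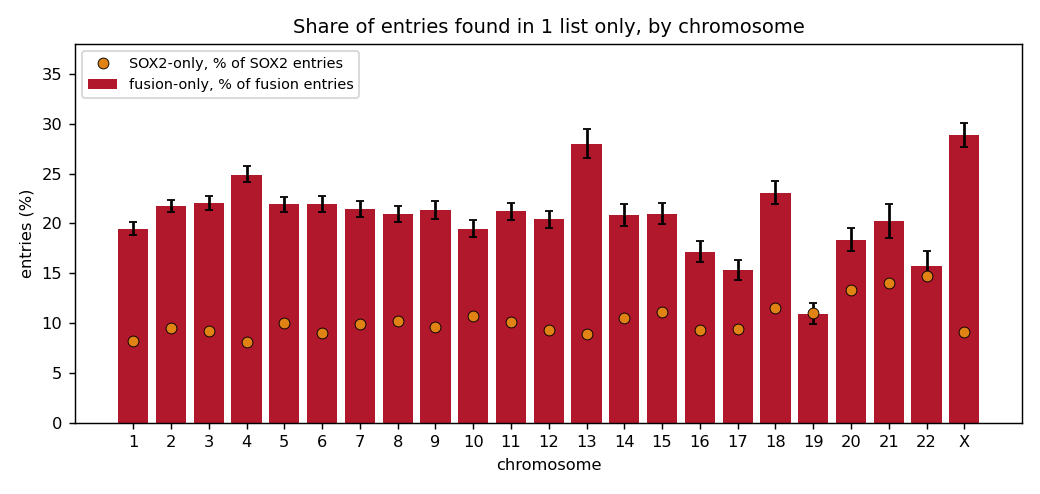
Bars give, for each chromosome, the share of fusion entries (%) that is fusion-only, with Wilson 95% intervals, and points the share of SOX2FL entries that is SOX2-only. X (28.9%) and 13 (28.0%) stand highest and 19 (10.9%) lowest, whereas the SOX2-only share varies within 8.12% (4) and 14.7% (22).

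Genes with the most fusion-only summits were long: genes with at least 10 had a median span of 753 kb, against 24.2 kb over all protein-coding genes. Fusion-only summits stood at 1.26 per 100 kb inside protein-coding spans and 1.24 per 100 kb over the genome. Of all fusion entries 21.1% were fusion-only, and since the genes below were picked for their counts, their shares are given without a test. EYS, a photoreceptor matrix protein gene that spans 1987 kb, had 41 among 120 fusion entries (34.2%, interval 26.3 to 43.0%). DLG2, which encodes a postsynaptic scaffold, had 38 of 182 (20.9%), and PTPRD, a receptor phosphatase of synapse formation, had 37 of 99 (37.4%, 28.5 to 47.2%). AGBL4, a carboxypeptidase gene, had 36 of 110 (32.7%, 24.7 to 41.9%). They were followed by CTNNA3 (32 of 130), RBFOX1 (29 of 127), LINGO2 (27 of 104), MACROD2 (26 of 119), CTNNA2 (25 of 103) and PCDH15 (25 of 120). CTNNA2 and CTNNA3 encode alpha-catenins, PCDH15 a protocadherin and RBFOX1 a neuronal splicing factor. Between 1 (LINGO2, CTNNA2) and 7 (PCDH15) of the summits of each gene had an IDR of at most 0.05.

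By density, among genes with at least 5, the highest was RGS21, a small regulator of G-protein signalling, with 9.94 per 100 kb against 1.26 over all spans, where 5 of its 6 fusion entries were fusion-only and SOX2FL had no entry. Next were ESF1 (5 of 7), ACVR2A (6 of 10), UBE2D3 (5 of 10) and SCIN (6 of 9). ACVR2A, a receptor for activins, had 2 of its 6 at an IDR of at most 0.05, SCIN had 1, and RGS21, ESF1 and UBE2D3 had 0. Fixed windows of 1 Mb had a median of 13 fusion-only summits and at most 31. The one starting at 64000001 on chromosome 6, inside EYS, had 31 of 73 fusion entries (42.5%, 31.8 to 53.9%). The window starting at 48000001 on chromosome 15, which holds FBN1 and SLC12A1, also had 31, of 91. That starting at 60000001 on chromosome 17, with BCAS3 and PPM1D, had 30 of 87. One starting at 88000001 on chromosome 8, with MMP16, had 29 of 94, and one starting at 108000001 on chromosome 10, without a protein-coding gene, had 29 of 85.

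Gene lists for programmes that SOX2, FOXA2 or the host cell are known for were then looked up. A gene was counted if a fusion-only summit lay inside it or within 50 kb of it, which was the case for 71.6% of all 19974 protein-coding genes. Of the endoderm and liver list 18 of 26 genes had one, of the pluripotency list 13 of 20, of the neural progenitor list 13 of 22, of the osteoblast and mesenchymal list 11 of 18, and of the AP-1 and TEAD list 14 of 18. The fusion-only share of the fusion entries near these genes was 18.9%, 16.5%, 14.4%, 14.5% and 14.3% in the same order, against 17.2% over all genes. For these shares an entry near more than 1 gene was counted once for each of them. In the endoderm and liver list, ALB and AFP share 6 fusion-only entries, so its 18.9% rests in part on repeats. By genes, the lists lay between 59.1% (neural progenitor) and 77.8% (AP-1 and TEAD). In all, 152 different fusion-only entries lay near listed genes, and 11 of them (7.24%) had an IDR of at most 0.05. Most of these are named in what follows, and the ones beyond the nearest genes of each list were picked after their values were seen.

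In the endoderm and liver list, the genes described are AFP, TF and ALB, among those nearest to a fusion-only summit. ALB and AFP encode albumin and alpha-fetoprotein, and they are neighbours on chromosome 4 and known targets of FOXA factors in liver. Of the 15 fusion entries in or near ALB, 7 were fusion-only, and 6 of these also lay in or near AFP. The strongest lay between both genes (chr4:73431016-73431897), 9934 bp from ALB and 4805 bp from AFP, with inputs of 14.1 and 9.26 (IDR 0.00397). A second was 19081 bp from ALB (chr4:73384893-73385471), with 8.76 and 10.7 (IDR 0.00623). The remaining 5 had an IDR above 0.05, the lowest being 0.0831 inside AFP (inputs 5.22 and 5.11). TF, the transferrin gene, had 6 of 20, with the lowest IDR at 0.0843. ONECUT1, a hepatic cut-homeodomain factor, had 1 of its 2 at 48800 bp (9.91 and 7.51, IDR 0.0118).

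In the pluripotency list, the nearest were DPPA4, TFCP2L1, PRDM14 and CRIPTO. DPPA4, a developmental pluripotency gene, held 2 weak entries and had another nearby, with strengths of 2.14 to 3.62. TFCP2L1, a factor of naive pluripotency, had 2 of 12, with inputs of 2.84 and 3.54 inside the gene. CRIPTO, the gene of a NODAL co-receptor, had 3 of 10. PRDM14, a regulator of germ cells and pluripotency, had the one entry of this list that passed, 14282 bp away (6.97 and 5.53, IDR 0.0393). In the neural progenitor list, PROM1, which encodes the stem cell surface protein CD133, had 4 of 17, with strengths up to 4.25, and NEUROG2, a proneural factor, 3 of 9. NOTCH1 had 2 of 10. LHX2, a LIM-homeodomain factor of the forebrain, had 5 of 13, of which 1 passed at 43251 bp (7.76 and 12.1, IDR 0.0120). SOX21, a relative of SOX2, had 1 of 4 at 5705 bp (5.89 and 6.57, IDR 0.0382).

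In the osteoblast and mesenchymal list, the genes described are SPP1 (osteopontin), PRRX1 (a limb mesenchyme homeobox gene) and COL1A2 (a type I collagen chain), likewise among the nearest. SPP1 had 1 of 12 (5.09 and 8.10, IDR 0.0862). PRRX1 had 6 of 12, none at an IDR of at most 0.05. COL1A2 had 4 of 11, of which 1 passed at 43365 bp (6.97 and 7.65, IDR 0.0191). SNAI2, a repressor of epithelial genes, had 2 that passed, at 9212 bp (8.28 and 10.0, IDR 0.00748) and 22253 bp (7.599 and 9.22, IDR 0.0119). In the AP-1 and TEAD list, TEAD1 had 8 of 31, WWTR1 4 of 30, YAP1 5 of 18 and ATF3 1 of 14, none at an IDR of at most 0.05. TEAD1 is a DNA-binding partner of YAP1 and of the WWTR1 product TAZ, and ATF3 is a stress-induced AP-1 family member. CCN2, a growth factor gene driven by YAP and TEAD, had the strongest fusion-only entry near any listed gene, 12589 bp away (chr6:131963279-131964454), with 13.6 and 17.1 (IDR 0.000756).

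Of 1558 listed microRNA hairpins, 159 overlapped a fusion entry and 10 of these (6.29%) a fusion-only entry. By entries, 8 of the 154 fusion entries over hairpins were fusion-only, where 21.1% of all fusion entries were. The entry over MIR2355 was the strongest, with 15.6 and 10.5 (IDR 0.00226), and that over MIR6081 followed with 5.89 and 7.40 (IDR 0.0442). MIR449A and MIR449B shared 1 entry (3.82 and 4.34), as did MIR4524A and MIR4524B (3.88 and 2.76), both at the highest IDR of 0.511. MIR138-1, MIR190A, MIR1324 and MIR6752 were also covered, each at the same highest IDR.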

How the data were processed

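ATAC-seq had been run on 12 U2OS samples. The submitters' processing notes name FastQC 0.10.1, Trim Galore, Bowtie2 2.4.4, SAMtools 0.1.18, MACS2, deepTools 2.4.1 and hg38, without role or order. The lists of the FOXA2 set, deposited by the authors 1 per library, give each peak a −log10 p, a −log10 q, a score and a summit. None of their values entered a result here other than as presence, distance or the FOXA2 and SOX2 label check. The lists of the SOX2 set, deposited 1 per group, give the −log10 p of both inputs, a global IDR and a score made from it; the entry's −log10 p is the lower input. Those values depend on read depth, which is unknown, and were compared within a list, apart from the SOX2-only values set beside them. No IDR threshold had been applied.

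Entries on chromosomes 1 to 22 and X were merged at 1 bp and classed by list with Python 3.11.15, pandas 2.3.3 and numpy 2.4.6 (intervals from statsmodels 0.14.6, correlations from scipy 1.17.1, figures from matplotlib 3.10.9). Merging was checked on simulated intervals. The strength classes keep tied values together. Genes came from RefSeq (GRCh38.p14): spans for all 19974 protein-coding genes, starts for 15812, none of them on chromosome 8, which is left out of distances to starts. Distances run from the summit, except gaps between entries. Because no genome sequence was used here, words were searched in the listed promoter windows instead of around summits, and genes of a list were matched by span instead of start. Shares have Wilson 95% intervals; no test was made, with 1 list per group in the SOX2 set.

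The regions and gene lists were chosen with earlier results of these data known. Named by rule were the 10 strongest regions, the 6 strongest promoter entries with a SOX or FOXA word inside both the entry and the 250 bases upstream of the start, the 10 protein-coding genes with most fusion-only summits, the 5 with most per 100 kb among those with at least 5, the 5 fullest 1 Mb windows and the 4 nearest genes of each list, of which some are not reported here. Alternatives changed the overlap rule, the IDR threshold, the number of entries, the lists used, the distance and annotation, the strength class and the GC share.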

Additional observations from a re-analysis of the deposited data

How the results depend on the processing

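The number of fusion-only regions was 37561. It was 36933 with 500 bp windows around summits, 46658 where other lists had to cover at least 50% of an entry, 28040 with no other entry within 1000 bp and 44410 from the SOX2-set lists alone. It fell to 3936 with fusion entries at an IDR of at most 0.05, to 14397 with all lists of the SOX2 set at that threshold, and to 15977 with the strongest 110813 entries of each SOX2-set list, where 11156 regions were SOX2-only. Leaving out 1 FOXA2-set library gave from 37567 to 39396.

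The share at an IDR of at most 0.05, 10.5%, was 2.92% at a threshold of 0.01 and 16.6% at 0.1. It was 10.9% with summit windows, 13.5% with the 50% cover, 11.1% with the 1000 bp gap and 40.6% with equal numbers of entries, and from 10.4% to 10.5% without 1 library. The share within 1 kb of a start, 0.787%, was 1.54% with all listed genes, 2.36% at 2.5 kb and 1.73% by either end of protein-coding spans (added after seeing the data). It was 0.694% with summit windows, 0.917% with the 50% cover, 0.509% with the 1000 bp gap, 0.217% (8 of 3693) and 0.598% with the IDR threshold on the fusion list and on all 3 lists, 0.472% with equal numbers, and from 0.787% to 0.820% without 1 library.

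The shares of promoter windows with a SOX word, 24.4%, and a FOXA word, 9.95%, rest on few windows. With fusion entries at an IDR of at most 0.05 they were 44.4% and 22.2% of 9 windows. In strength classes 3 to 5 the FOXA word was at 16.2% of 37 windows. Without 1 library they ran from 22.9% to 24.4% and from 9.35% to 9.95%. The 10 strongest regions stayed fusion-only under each of these settings, except that 9 did with the 1000 bp gap. Most settings could not have removed them, since they thin or drop other lists, relax the overlap rule or keep strong fusion entries. The summit windows could not either, with no entry of another list closer than 504 bp. Word searches in narrower and wider summit windows were not run, since they need a genome sequence. No paired analysis was possible because the results come from no test and the lists of the SOX2 set carry no replicate number. Depth is unknown, a SOX2-set group has a single list, and absence from a list is not absence of accessibility.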
